A study of Mus musculus with 15 samples.

Results

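The orexin and melanin-concentrating hormone (MCH) system of the lateral hypothalamus was described here through 7 genes, taken by name: the peptide precursors Hcrt, Pmch, Gal and Nts and the receptors Hcrtr1, Hcrtr2 and Mchr1. They accounted for 10 of the 49404 transcripts and 7 of the 24831 gene names in the table. The study sequenced total RNA of the hypothalamus from CD-1 mice at postnatal day 15, and its title places the animals in a second generation descending from thyroid hormone exposure. There were 15 samples, 3 in each of the groups PGM, PGF, HM, HF and Control, and the sources used here do not spell out the group codes or any treatment of the animals themselves. The values were the authors' deposited group means in RPKM, which divides the reads of a transcript by its length and by the mapped reads of the library. No value per sample was used, so no spread, test or replicate check stands behind any difference, the depth is unknown, and it cannot be said which neighbouring groups differ beyond their spread.

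Orexin neurons and MCH neurons are separate populations that lie intermingled in the lateral hypothalamus and project across the brain. Orexins, cleaved from the product of Hcrt, sustain wakefulness and appetite through the receptors encoded by Hcrtr1 and Hcrtr2, and loss of these neurons causes narcolepsy. MCH, cleaved from the product of Pmch, favours feeding and rapid eye movement sleep, and in rodents acts through the receptor encoded by Mchr1. Neurotensin (Nts) and galanin (Gal) mark further neurons of the lateral hypothalamus, but both are also made in other hypothalamic nuclei, and the receptors are expressed far beyond it. The gene set therefore names a system and not a cell type, and only Hcrt and Pmch are close to confined to lateral hypothalamic neurons.

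In GENCODE M21 (GRCm38, the assembly called mm10) all 7 are protein-coding genes. Hcrt lies on chromosome 11 (100761069 to 100762931, minus strand), Pmch on chromosome 10 (88091072 to 88092375, plus strand), Nts on chromosome 10 (102481756 to 102490486, minus strand) and Gal on chromosome 19 (3409915 to 3414544, minus strand). Hcrtr1 lies on chromosome 4 (130130217 to 130139359, minus strand), Hcrtr2 on chromosome 9 (76225880 to 76323856, minus strand) and Mchr1 on chromosome 15 (81235499 to 81238964, plus strand). The 250 bases before the start of the 4 peptide genes are shown because these genes carried the contrast described next: Gal was the gene that passed 1.5-fold and the other three stayed near their Control level. The RefSeq start of Nts lies inside the GENCODE gene, and those of the other three match it. The sequences are from RefSeq (GRCm38.p6), written 5′ to 3′ on the strand of the gene, and capitals mark a TATA box (TATAAA) or an AP-1 element (TGAGTCA).
Hcrt, chr11:100762932-100763181, minus strand:
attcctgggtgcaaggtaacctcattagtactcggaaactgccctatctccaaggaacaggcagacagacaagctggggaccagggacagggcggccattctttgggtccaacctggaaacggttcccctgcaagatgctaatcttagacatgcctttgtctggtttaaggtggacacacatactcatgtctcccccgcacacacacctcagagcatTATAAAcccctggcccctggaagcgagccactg
Pmch, chr10:88090822-88091071, plus strand:
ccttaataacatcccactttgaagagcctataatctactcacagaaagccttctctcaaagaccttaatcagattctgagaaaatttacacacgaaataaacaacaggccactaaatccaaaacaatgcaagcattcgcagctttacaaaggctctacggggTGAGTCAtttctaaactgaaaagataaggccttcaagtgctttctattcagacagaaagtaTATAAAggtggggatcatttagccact
Nts, chr10:102490419-102490668, minus strand:
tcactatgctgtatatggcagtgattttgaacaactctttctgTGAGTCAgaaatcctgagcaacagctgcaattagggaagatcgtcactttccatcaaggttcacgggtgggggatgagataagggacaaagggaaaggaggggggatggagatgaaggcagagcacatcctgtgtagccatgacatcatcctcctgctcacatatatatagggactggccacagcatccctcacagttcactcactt
Gal, chr19:3414545-3414794, minus strand:
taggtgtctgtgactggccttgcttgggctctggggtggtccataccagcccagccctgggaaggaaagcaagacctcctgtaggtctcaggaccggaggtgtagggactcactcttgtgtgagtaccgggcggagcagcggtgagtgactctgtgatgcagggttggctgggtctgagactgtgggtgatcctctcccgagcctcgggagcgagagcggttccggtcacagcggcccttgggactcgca

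The TATAAA letters began 33 bases before the start of Hcrt and 27 bases before that of Pmch. TGAGTCA began 88 bases before the start of Pmch and 207 bases before that of Nts. All these matches were on the strand of the gene, no matches overlapped, and both strands were searched for these motifs and for the cyclic AMP response element TGACGTCA. In 32851 RefSeq promoters of the same length, 12.4% held TATAAA, 4.46% held TGAGTCA and 1.55% held TGACGTCA on either strand. The window before Gal held none of the 3 motifs, which says only that these letters are not in it. The matches are a description of the sequence and not of binding.

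Pmch and Hcrt were close to their Control level in every group. Pmch was the most abundant of the 7 genes, at 591 RPKM in PGM, 604 in PGF, 541 in HM, 544 in HF and 524 in Control. It was highest in PGF and lowest in Control, with a highest-to-lowest ratio of 1.15. Hcrt was at 167 RPKM in PGM, 198 in PGF, 185 in HM, 185 in HF and 178 in Control. It was thus highest in PGF and lowest in PGM, with a ratio of 1.18, and HM and HF were almost level. By mean over the 5 groups, Pmch ranked 253 and Hcrt 949 among the 17481 genes that averaged 1 RPKM or more, so both precursors were abundant in the dissected tissue. The level of Pmch was 3.53 times that of Hcrt in PGM, 3.05 times in PGF, 2.93 times in HM, 2.94 times in HF and 2.95 times in Control. This ratio of levels per length stood apart in PGM, where Pmch was above and Hcrt below Control. As a difference of log2(mean RPKM + 0.5), the scale of all differences given, Pmch was at 0.17 in PGM and 0.20 in PGF, and Hcrt at -0.09 in PGM and 0.16 in PGF, each relative to Control. In HM and HF the differences of both genes lay between 0.05 and 0.06.

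The Pmch values have a limit set by the annotation. Exons of Parpbp, a gene of DNA repair on the opposite strand, cover 435 of the 749 exonic bases of Pmch, and the sources used here do not give whether reads were counted by strand. The table lists this gene under its older name 4930547N16Rik, at 66.9 RPKM in PGM, 67.6 in PGF, 59.96 in HM, 59.5 in HF and 58.7 in Control. Its differences from Control, 0.19 in PGM and 0.20 in PGF, were near those of Pmch. Without strand, reads within the shared bases cannot be assigned to either gene.

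**Figure D1:**
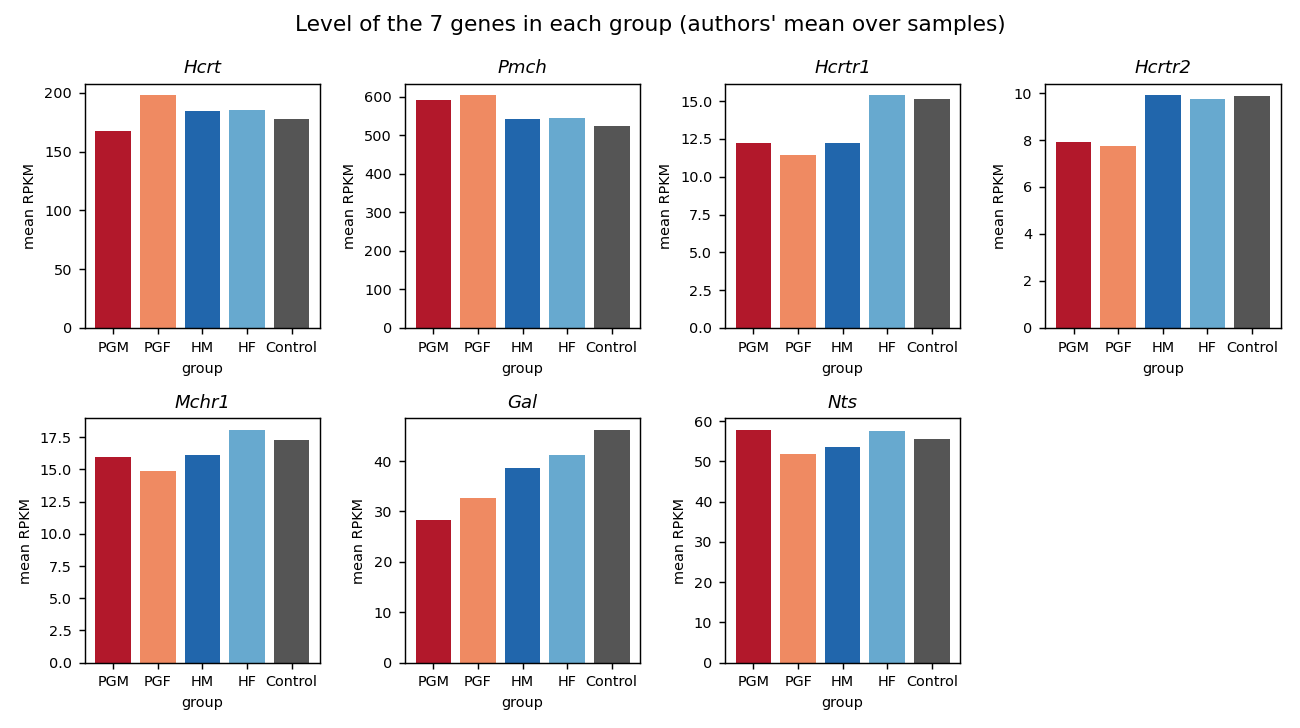
Mean RPKM (vertical axes, each starting at 0) of the 7 genes in the groups PGM, PGF, HM, HF and Control; bars are the authors' group means and carry no error bars because no value per sample was used. Gal is at 28.3 RPKM in PGM and 46.2 in Control, while Hcrt, Pmch and Nts are almost level.

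Of the other 2 peptide genes, Nts was the steadiest of the 7 and Gal the most variable. Nts was at 57.8 RPKM in PGM, 51.8 in PGF, 53.7 in HM, 57.5 in HF and 55.6 in Control, a highest-to-lowest ratio of 1.12. It was a little higher in PGM and HF and a little lower in PGF and HM, with differences between -0.10 and 0.06. Gal was at 28.3 RPKM in PGM, 32.6 in PGF, 38.7 in HM, 41.2 in HF and 46.2 in Control. All 4 groups lay below Control, PGM by most, and the highest-to-lowest ratio was 1.63. The differences were -0.70 in PGM (1.62-fold lower), -0.50 in PGF (1.41-fold lower), -0.25 in HM and -0.16 in HF. Of all 17481 genes, 1.24% were lower than Gal in PGM and 3.43% in PGF. With HF in place of Control the difference of Gal in PGM was -0.54, short of 1.5-fold. In tissue RNA, fewer galanin neurons and less Gal RNA per neuron cannot be told apart.

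The orexin receptors were lower in PGM and PGF, and Hcrtr1 also in HM, while Hcrt was slightly lower in PGM and slightly higher in PGF. Hcrtr1, the receptor known from noradrenergic neurons of the brainstem, was at 12.3 RPKM in PGM, 11.4 in PGF, 12.2 in HM, 15.4 in HF and 15.2 in Control. HF and Control were thus level and the other 3 groups formed a lower set, with differences of -0.30 in PGM, -0.39 in PGF and -0.30 in HM. Hcrtr2, the receptor through which orexin excites histamine neurons, was at 7.92 RPKM in PGM, 7.74 in PGF, 9.91 in HM, 9.76 in HF and 9.86 in Control. Here HM sided with HF and Control, and PGM and PGF were lower by similar amounts, with differences of -0.30 and -0.33. HM was therefore the group in which the receptors parted: Hcrtr1 was at 1.24 times the level of Hcrtr2 in HM, compared with 1.55 times in PGM, 1.48 in PGF, 1.58 in HF and 1.54 in Control. None of these receptor differences reached 1.5-fold. In PGM 11.2% of all genes were lower than Hcrtr1 and 11.0% lower than Hcrtr2, and in PGF 6.44% and 9.63%. In HM 7.30% were lower than Hcrtr1. For Pmch in PGF 11.9% of genes were higher, a placing about as far out as that of Hcrtr2.

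Each listed transcript of the receptors followed its gene. The 3 transcripts of Hcrtr1 lay between 11.0 and 11.5 RPKM in PGF and between 14.7 and 15.4 in Control, and their differences were -0.41, -0.39 and -0.40 in PGF. The 2 transcripts of Hcrtr2 were at 6.71 and 8.76 RPKM in PGF, against 8.86 and 10.9 in Control, with differences of -0.38 and -0.29. Transcripts of a gene share most of their reads, so they do not count as separate measurements. Hcrt, Pmch, Mchr1, Gal and Nts had 1 listed transcript each.

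Mchr1, the MCH receptor, was at 15.97 RPKM in PGM, 14.9 in PGF, 16.1 in HM, 18.1 in HF and 17.3 in Control. It was lowest in PGF and highest in HF, and its differences were small, -0.11 in PGM, -0.21 in PGF and -0.10 in HM, with HF at 0.06. All 3 receptor genes were lowest in PGF, as was the peptide gene Nts.

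Counted together, 1 of the 7 genes, Gal, was at least 1.5-fold from Control in PGM, where 4.62% of 17481 genes were. In PGF 0 of the 7 genes passed, beside 4.04% of genes. In HM 0 passed beside 1.54%, and in HF 0 beside 0.829%. Between groups other than Control, 0 of 7 passed for PGM against PGF (0.99% of genes) and 0 of 7 for HM against HF (1.68%). In PGM 5 of the 7 were below Control and their median difference was -0.11, beside 0.005 over all genes. In PGF 5 were below with a median of -0.21, beside -0.03 over all genes, and in HM 4 were below with -0.05, also beside -0.03. In HF 5 of 7 were above Control, with a median of 0.05 beside 0.02 over all genes.

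**Figure D2:**
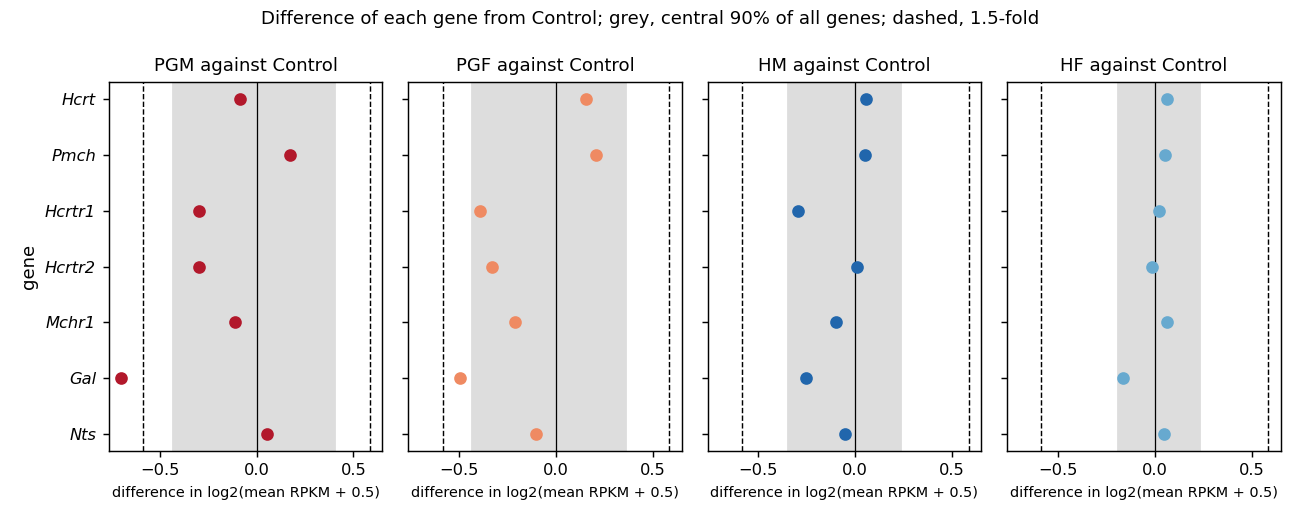
Difference in log2(mean RPKM + 0.5) from Control (horizontal axes) of each of the 7 genes (rows) in PGM, PGF, HM and HF; the grey band holds the central 90% of 17481 genes and dashed lines mark 1.5-fold. Gal lies outside the band in PGM and PGF and past 1.5-fold in PGM, and the other 6 genes lie within the band in every panel.

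Set against each other, PGM and PGF differed most in Hcrt, at 167 RPKM in PGM and 198 in PGF, a difference of -0.24, with 4.35% of genes lower. Gal differed by -0.20 in the same direction, and Nts by 0.16 in the other. The receptors were close, with Hcrtr1 at 0.10, Mchr1 at 0.10 and Hcrtr2 at 0.03. For HM against HF the largest difference was that of Hcrtr1, at 12.2 RPKM in HM and 15.4 in HF, -0.32, with 5.71% of genes lower. Mchr1 followed at -0.16, and Hcrt and Pmch both differed by -0.01. Of the 7 genes 6 were lower in HM than in HF, as were 68.6% of all genes.

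Receptors of galanin and neurotensin, listed with the peptides Galp and Spx, gave 5 measured genes of 8, and none reached 1.5-fold in PGM or PGF on the log2(mean RPKM + 0.5) scale. The shares of all genes at 1.5-fold were 4.62% in PGM and 4.04% in PGF. Galr3, a galanin receptor at low level, came closest, at 2.32 RPKM in PGM and 2.30 in PGF, against 3.63 in Control. Its differences were -0.55 and -0.56, and as a plain ratio of RPKM both would pass. Ntsr2, a neurotensin receptor of astrocytes, was at 209 RPKM in PGM and 216 in PGF, against 199 in Control. Sort1, the sorting receptor that also binds neurotensin, was at 109.6 RPKM in PGM and 109.2 in PGF, against 94.5 in Control. Galr1, another galanin receptor, was at 12.5 RPKM in PGM and 10.97 in PGF, against 14.0 in Control, so it was lower where Gal was lower. Ntsr1 differed by -0.28 in PGM and -0.08 in PGF. The gene of the list that passed 1.5-fold elsewhere was again Galr3, at 2.06 RPKM in HM, against 4.10 in HF and 3.63 in Control, differences of -0.85 and -0.69.

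Genes known from orexin neurons did not share a direction. Of the 8 measured, 4 were above and 4 below Control in PGM and likewise in PGF. Lhx9, a transcription factor that promotes orexin neurons and is also expressed in the thalamus, was at 10.8 RPKM in PGM, 7.49 in PGF, 6.12 in HM, 4.49 in HF and 4.63 in Control. It was 1.5-fold higher or more in PGM and PGF, differences of 1.13 and 0.64, where thalamic markers were also higher. Qrfp, a feeding peptide of the lateral hypothalamus, was at 1.58 RPKM in PGM and 0.92 in PGF, against 2.37 in Control, and passed 1.5-fold in PGF. Pdyn, the dynorphin precursor that orexin neurons also make, differed by 0.18 in PGM and -0.29 in PGF. Nptx2, a pentraxin of excitatory synapses, differed by 0.36 and 0.08, Slc17a6, the vesicular glutamate transporter of these neurons, by 0.20 and 0.04, and Igfbp3 by -0.13 and 0.09.

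Among 6 genes known from MCH neurons, 1 passed 1.5-fold in any comparison with Control, the peptide gene Cartpt, at 175 RPKM in HM, against 108 in Control. Of all genes 1.54% passed in HM, and between 0.829% and 4.62% across the comparisons with Control. MCH neurons are only part of the sources of Cartpt, and Pmch in HM differed from Control by 0.05. Gad1, the GABA-synthesizing enzyme, was at 173 RPKM in PGM and 165 in PGF, against 162 in Control. Cnr1, the cannabinoid receptor, differed by -0.24 in PGM and -0.38 in PGF. Of the 10 genes that process and store peptides, 0 were at 1.5-fold in each of the 6 comparisons, beside 0.829% to 4.62% of all genes. For 10 genes, 0 lies near those shares. The medians of these genes lay between -0.03 and 0.04 with members on both sides. Pcsk1 and Pcsk2, the convertases that cut prohormones, went opposite ways. Pcsk1 differed by -0.34 in PGM and -0.27 in PGF, and Pcsk2 by 0.30 and 0.28. Pam, the enzyme that amidates peptides, differed by -0.27 and -0.25, and Scg5, a chaperone of Pcsk2, by 0.25 and 0.22. Cpe, the carboxypeptidase that trims precursors such as those of orexin and MCH, was at 2224 RPKM in PGM and 2138 in PGF, against 1957 in Control. Scg2, a granin of secretory granules, was at 587 RPKM in PGM and 614 in PGF, against 677 in Control.

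Among other genes of lateral zone neurons, most were below Control. In PGM 9 of 12 were below Control, 3 of them by at least 1.5-fold, with a median of -0.23. In PGF 11 of 12 were below, 2 by at least 1.5-fold, with a median of -0.34. Over all genes, 48.8% were below Control in PGM and 55.6% in PGF, with 4.62% and 4.04% at 1.5-fold in either direction. In HM 11 of 12 were also below, 0 by at least 1.5-fold, with a median of -0.17. Of all genes 59.9% were below Control in HM. The genes that passed in PGM were Lepr, the leptin receptor carried by many neurotensin neurons of the lateral hypothalamus, Calcr and Trh, and those in PGF were Calcr and Trh. Lepr was at 2.51 RPKM in PGM and 3.10 in PGF, against 4.26 in Control, while Nts stayed near Control. Sst, the somatostatin precursor, differed by -0.06 in PGM and -0.15 in PGF, Tac1 by -0.22 and -0.27, and Penk by 0.11 and -0.20.

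Among neurons that orexin excites, those that make histamine lie within the hypothalamus. Hdc, which encodes the enzyme of histamine synthesis, was at 21.5 RPKM in PGM, 22.6 in PGF, 29.9 in HM, 35.4 in HF and 35.6 in Control. Hdc and Hcrtr2 were thus both lower in PGM and PGF, Hdc by -0.72 and -0.65. In HM they parted, Hdc being at -0.25 and Hcrtr2 at 0.01. Of 10 listed genes 7 were measured, and Hdc was the only one at least 1.5-fold lower in PGM or PGF. Over all genes, 4.62% in PGM and 4.04% in PGF were at 1.5-fold in either direction. The dopamine genes Th and Slc6a3, which are also markers of midbrain dopamine neurons, followed another order. Slc6a3 was at 45.95 RPKM in PGM, 109.6 in PGF, 76.9 in HM, 123 in HF and 58.1 in Control. The markers of serotonin and noradrenaline neurons Tph2, Slc6a4 and Dbh were under 1 RPKM in every group.

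Compared with 19 other peptide genes of the hypothalamus, Hcrt, Pmch and Nts stood at the upper end in PGM and PGF. In PGM 15 of these 19 genes were below Control, 6 by at least 1.5-fold, with a median of -0.29. In PGF 15 were below, 10 by at least 1.5-fold, with a median of -0.63. The shares of all genes were 48.8% below in PGM and 55.6% in PGF, and 4.62% and 4.04% at 1.5-fold in either direction. In PGF 17 of the 19 had a lower difference than Hcrt, 17 a lower one than Pmch and 15 a lower one than Nts. In PGM these counts were 14, 18 and 17. Gal ranked among the others, with 4 of 19 below it in PGM and 10 in PGF. The level of Hcrt was 0.48 times that of Avp, the vasopressin precursor, in PGM and 0.74 times in PGF, against 0.27 times in Control. Oxt, the oxytocin precursor, was lower in the same groups, by -0.80 in PGM and -1.26 in PGF. In HM and HF the other peptide genes had medians of -0.01 and -0.05, and Hcrt and Pmch lay near the middle of them.

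**Figure D3:**
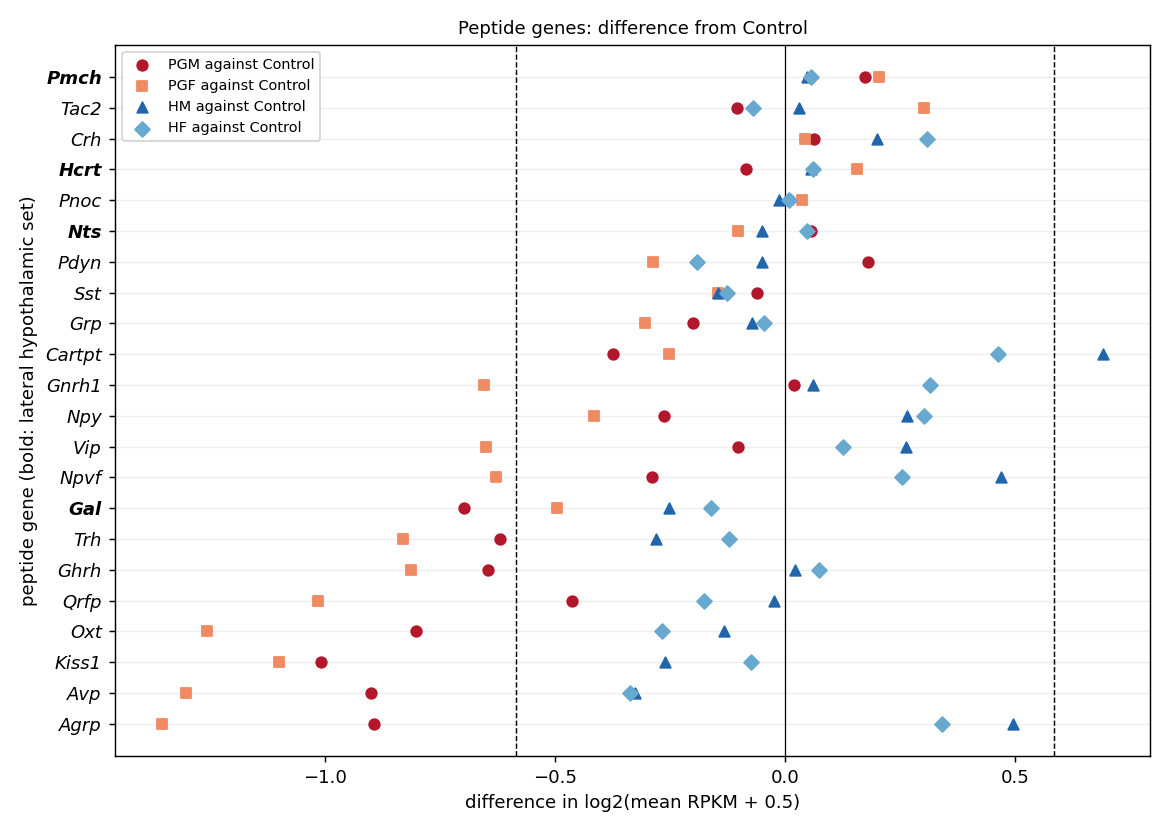
Difference in log2(mean RPKM + 0.5) from Control (horizontal axis) of Hcrt, Pmch, Nts and Gal (bold) and of 18 other hypothalamic peptide genes, sorted by their mean over PGM and PGF; markers and colours give the group, dashed lines mark 1.5-fold, and Pomc is left out because its PGF value of 3.90 lies far off the axis. Pmch, Hcrt and Nts sit near 0 in all groups, while Gal is below 0 in all 4 groups, with 4 of the 19 other peptide genes below it in PGM and 10 in PGF.

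Markers of other tissues and hypothalamic transcription factor genes also differed between the group means. Thalamic markers were above Control in 10 of 10 genes in PGM and 9 of 10 in PGF, with median differences of 1.10 and 0.87. Their summed levels were 916 RPKM in PGM, 827 in PGF, 661 in HM, 597 in HF and 611 in Control. Calb2 was the largest part of each sum, at 428 RPKM in PGM, 352 in PGF and 421 in Control, so the sums understate the other markers. Prkcd was at 154 RPKM in PGM and 156 in PGF, against 35.0 in Control. Hypothalamic transcription factor genes were below Control in 15 of 17 in PGM and 16 of 17 in PGF, beside 48.8% and 55.6% of all genes. Their sums were 107 RPKM in PGM, 91.3 in PGF, 116 in HM, 128 in HF and 131 in Control. Myelin genes were above Control in 9 of 9 in all 4 groups, cortical and striatal markers in 7 of 11 in PGM, and pituitary markers in 7 of 7 in PGF, where they summed to 2025 RPKM against 97.3 in Control. Prl was listed at 0 in HF. Midbrain dopamine markers include Th and Slc6a3. Their sums were 162 RPKM in PGM, 290 in PGF, 243 in HM, 338 in HF and 203 in Control. They were below Control in 6 of 6 genes in PGM and above it in 4 of 6 in HF. In HF 3 of them were at least 1.5-fold higher, beside 0.829% of all genes at 1.5-fold in either direction. Choroid plexus markers summed to 132 RPKM in PGM and 478 in PGF, against 33.2 in Control. These higher sums were carried by Ttr, at 106 RPKM in PGM and 440 in PGF, against 7.01 in Control. Of 8 choroid plexus markers 5 were above Control in PGM and 7 in PGF. The 7 genes of the orexin and MCH set summed to 880 RPKM in PGM, 920.0 in PGF, 857 in HM, 871 in HF and 845 in Control, a sum carried by Pmch.

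Relative to the median of the hypothalamic transcription factor list, every gene moves up by the same amount, and the median of all genes is then at 0.49 in PGM and 0.58 in PGF. Hcrtr1 was at 0.19 in PGM and 0.22 in PGF and Hcrtr2 at 0.18 and 0.28, above 0 through that shift and still below the median of all genes. On that scale Gal was at -0.21 in PGM and 0.12 in PGF, Pmch at 0.66 and 0.82, and Hcrt at 0.40 and 0.77. The part that tissue content had in any of these differences was not tested. The Y-linked gene Ddx3y was at 30.4 RPKM in PGM, 31.97 in PGF, 16.8 in HM, 15.9 in HF and 2.52 in Control. The X-linked gene Xist went the other way, at 14.2 RPKM in PGM, 11.6 in PGF, 26.4 in HM, 35.4 in HF and 44.0 in Control. With 1 mean per group, the sex of the averaged animals and the group cannot be told apart. The part that sex had in the differences was not tested.

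**Figure D4:**
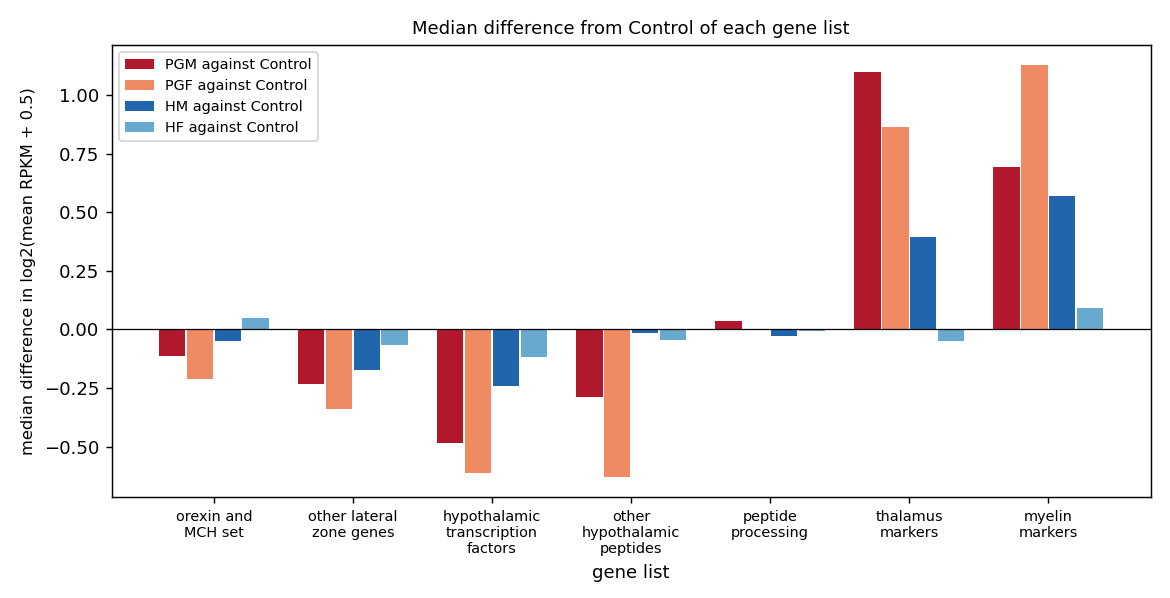
Median difference in log2(mean RPKM + 0.5) from Control (vertical axis) of the 7 genes of the orexin and MCH set and of 6 other gene lists (horizontal axis) in PGM, PGF, HM and HF; bars carry no error because each group has 1 mean per gene. The orexin and MCH set lies between -0.21 and 0.05, while transcription factor genes reach -0.61 and thalamus markers 1.10.

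For each of the 7 genes, the genes with the most similar pattern were found among 16008 others with a mean of at least 2 RPKM. Likeness was measured as the root mean square difference of log2(mean RPKM + 0.5), centred over the 5 groups. The closest to Gal were Gpx3 at 0.04, Grk4 at 0.04, Plagl1 at 0.04 and Scn7a at 0.05, and 14 genes in all lay within 0.05 of it. Gpx3, an extracellular glutathione peroxidase, was at 91.8 RPKM in PGM, 99.5 in PGF, 120.3 in HM, 131 in HF and 150.2 in Control. The closest to Hcrtr2 was Gpr101, an orphan receptor of the hypothalamus, at 53.95 RPKM in PGM, 52.7 in PGF, 65.5 in HM, 64.6 in HF and 67.3 in Control, followed by Rxra, Usp51 and Greb1l, with 93 genes within 0.05. The closest to Hcrtr1 were Pvrl2, Maged2, Pdpn and Isyna1, with 109 genes within 0.05, and the closest to Hcrt were Slc38a2, Stard9, Timp4 and Ighmbp2, with 127. Around Pmch (Ctr9, Ccnjl, Ninj1 and Dlst) 1529 genes lay within 0.05, around Mchr1 (Pxdn, Spata6, Dhrs11 and Plcg2) 1075, and around Nts (Hn1, Smarcb1, Igfbp5 and Cwf19l1) 2033. A fixed limit leaves fewer genes near a pattern of wider range, so these counts describe how common each pattern was and do not rank the genes otherwise.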

How the data were processed

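Total RNA of 15 mouse hypothalami was sequenced, with groups assigned from the sample titles. Reads were checked with FastQC and aligned with Novoalign 2.08 to mm10, per the submitters' processing notes; the sources used here do not give the counting program, its use of strand or the depth, so no interval is given. The authors deposited 1 mean RPKM per transcript and group, rounded to 2 decimals; 1 repeated header row was left out. Each gene took the median of its transcripts, and 17481 of 24831 gene names averaged 1 RPKM or more, among them all 7 genes described. Differences are of log2(mean RPKM + 0.5), which understates those of low genes, and 1.5-fold was counted in 6 comparisons with no test, as planned for a table of means. Counting and likeness were tested on simulated data.

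The 7 genes and 15 further lists, which share some genes, were chosen with earlier results of these data known. Of the listed names 1 was found by synonym and 1 was not found. Named were the 7 genes, the 4 or 3 most abundant genes of a list, and the 4 most alike by pattern, leaving out names without a function; Galr3, Pcsk1, Pcsk2, Pam, Scg5, Lhx9, Qrfp, Lepr, Calcr, Hdc and Tph2, Slc6a4 and Dbh were chosen after their values were seen. Not every gene the rule takes is printed. RefSeq promoters matched 7 of 7. Pseudocounts of 0.1 and 1, other filters, transcript summaries, scalings and thresholds were tried, and HF as reference was added afterwards. Python 3.11.15, numpy 2.4.6, pandas 2.3.3 and matplotlib 3.10.9 were used.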

Additional observations from a re-analysis of the deposited data

How the results depend on the processing

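No paired analysis was possible because the table holds 1 mean per group, so neither a replicate block nor leaving out a sample could be run, and depth is unknown. Over pseudocounts of 0.1 and 1, the highest transcript, the sum of transcripts and upper quartile scaling, all 210 differences of the 7 genes kept their side of 1.5-fold and moved by less than 0.1. Hcrt, Pmch, Mchr1, Gal and Nts have 1 listed transcript each. The highest transcript and the sum therefore could not change their differences, and those cases add nothing to the count.

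Relative to the hypothalamic transcription factor list, the median of all genes shifted to 0.49 in PGM, 0.58 in PGF, 0.21 in HM, 0.14 in HF, -0.11 between PGM and PGF and 0.07 between HM and HF. On that scale 0 of the 42 differences of the 7 genes moved by less than 0.1. In PGM 1 of the 7 genes passed, Pmch in place of Gal, and in PGF 2 did, Hcrt and Pmch, in place of 0. Over all genes 5437 passed in PGM, 8736 in PGF and 452 in HM, with 5397 higher and 40 lower in PGM (409 and 398 as reported), 8720 and 16 in PGF (377 and 329), and 416 and 36 in HM (118 and 151). The split was 175 higher and 21 lower in HF (115 and 30), 35 and 203 for PGM against PGF (76 and 97), and 118 and 124 for HM against HF (64 and 229). These shifts follow from the scaling itself.

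At 2-fold, 0 of the 7 genes passed in PGM, and 145 genes did in PGM, 147 in PGF, 38 in HM, 54 in HF, 50 between PGM and PGF and 46 between HM and HF. With HF as reference in place of Control, chosen after seeing the data, 0 of the 7 passed in PGM, and the differences of Gal were -0.54 in PGM, -0.33 in PGF and -0.09 in HM. Counts over all genes depended on low values. Without a filter 496 passed in HM, 363 in HF, 388 between PGM and PGF and 520 between HM and HF, and with a mean of at least 3 RPKM 172, 75, 93 and 182. With a pseudocount of 0.1, 271 passed for PGM against PGF.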
